A study of Caenorhabditis elegans with 4 samples.

Results

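Scattered peaks on the arms of the autosomes were examined in a chromatin immunoprecipitation sequencing (ChIP-seq) study of IMB-1, the importin beta of the nematode Caenorhabditis elegans. They are peaks of the series-level list that did not touch peaks of both ChIP replicates and that stood outside long chains of closely spaced peaks. There were 777 of them, among 1650 autosomal and 2008 peaks in all. A peak was taken as an arm peak when its middle lay in the outer parts of a chromosome, which are 66.7% of its length divided equally between the left and the right end. A peak was said to touch a replicate when the 2 lists shared 1 bp or more at that place. A chain was a set of 10 or more peaks with gaps of 5 kb or less in the series-level or replicate 1 list, and a peak anywhere inside the span of a replicate 1 chain was left out. Because measured peak positions chose the members, their position, their lack of support and their freedom from chains are given as a description.

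The samples were IMB-1 ChIP DNA (2 samples) and input DNA, a portion of extract kept before the antibody was added (2 samples). All 4 samples came from mixed-stage embryos of wild-type strain N2, from a population of males and hermaphrodites grown at 20 degrees Celsius and fixed with 2% formaldehyde for 30 minutes. The antibody was an affinity-purified rabbit polyclonal against a stretch of IMB-1. The labels do not say whether the 2 replicates came from separate cultures. Input was not analysed here, so no value below compares ChIP with input, and the read depth behind each peak is unknown. Replicate 1 had 1753 peaks and replicate 2 had 1620.

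As background, importin beta is a transport receptor that binds cargo in the cytoplasm, passes through nuclear pores and releases the cargo inside the nucleus under the control of the small GTPase Ran. It also takes part in spindle assembly and in forming the nuclear envelope and pores at the end of mitosis. C. elegans autosomes have gene-dense centres and arms that hold more repeats, recombine more often and carry more methylation of lysine 9 on histone H3. The arms are also known to lie near the nuclear envelope. No gene annotation or genome sequence of the build used for the peaks was at hand, so the regions are named by their WS220 coordinates, counted from 1, without genes or sequence.

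The filters removed a smaller part of the arm peaks than of the central peaks. The arms held 1211 autosomal series-level peaks, of which 301 touched both replicates and a further 133 stood in chains, which left 777 (64.2%). The central parts held 439, of which 121 touched both replicates and a further 115 stood in chains, which left 203 (46.2%). The chain filter therefore bears on every contrast between arms and centre. Of all autosomal peaks that passed the filters, 79.3% lay on the arms (exact Clopper-Pearson 95% interval 76.6 to 81.8%). Without the chain filter the share was 74.1%. Every interval in the text takes each peak as independent and reflects counting error alone, not replicate spread. With 1 series-level list and 2 ChIP samples no test over samples could be made, so none of the contrasts below carries a p-value and none is called particular to the arm peaks.

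**Figure D1:**
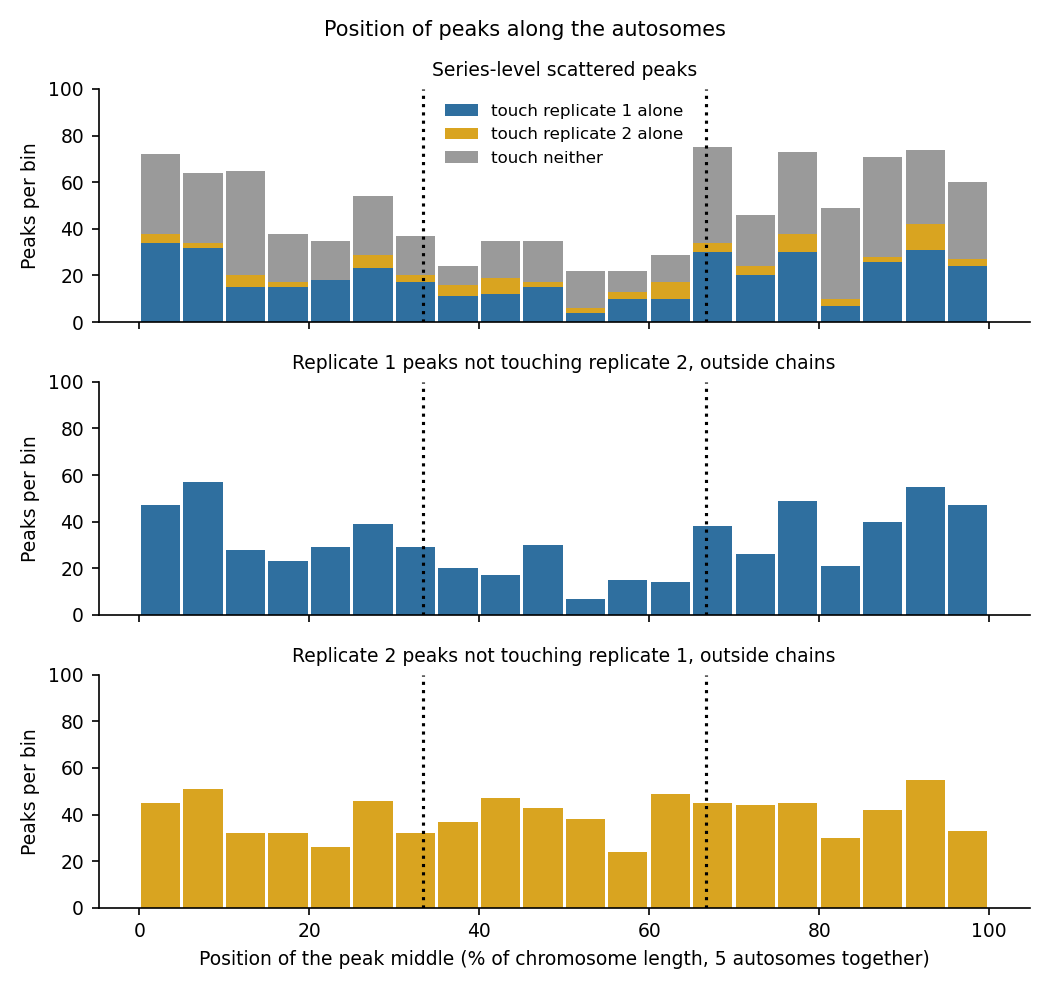
Number of peaks in bins of 5% of chromosome length (x axis, the 5 autosomes together), with dotted lines at the arm limits. The top panel has the series-level scattered peaks stacked by replicate support, and the lower panels have the peaks of each replicate that did not touch the other, outside chains of their own list. Counts in the top panel were 72 in the leftmost bin and 22 between 50 and 55%, while the replicate 2 panel had 45 in the leftmost bin and 38 between 50 and 55%, with its lowest bin, 24, between 55 and 60%.

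Scattered peaks were more densely placed on the arms than in the centre of every autosome. The arms had 14.1 scattered peaks per Mb and the central parts 7.38 per Mb, a ratio of 1.91. The ratio was 1.97 on I, 2.29 on II, 1.76 on III, 2.07 on IV and 1.60 on V. All 10 single arms had a higher density than the centre of their own chromosome, with arms between 9.36 and 21.1 per Mb and centres between 6.48 and 8.06 per Mb. The arms also had the larger covered share, with 0.440% of the arm length and 0.268% of the central length under scattered peaks. For peaks that touched both replicates, outside chains, the ratio of arm to centre density was 1.22, and 70.9% of them lay on the arms (66.3 to 75.3%). Before the replicate and chain filters the arms already held 1211 autosomal peaks and the centre 439. Without the chain filter 74.1% (71.6 to 76.5%) of the unsupported peaks lay on the arms, against 79.3% with it. The arm share of all autosomal peaks before the filters, 1211 of 1650, lies within the interval found without the chain filter. Part of the ratio of 1.91 is therefore made by that filter. So is most of the rise in arm share above that of all autosomal peaks.

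The left and right arms held unequal numbers, but not in the same direction on every chromosome. The right arms had 422 scattered peaks and the left arms 355, so the left share was 45.7% (42.1 to 49.3%). Before the filters the left arms held 562 autosomal peaks and the right arms 649, of which 63.2% and 65.0% were kept. The unequal numbers were thus already present in the whole list. Of arm peaks touching both replicates, outside chains, 47.2% (41.3 to 53.2%) were on the left. Right arms were the denser on 3 autosomes and left arms on the other 2. The right arm of IV had the highest density of the 10 arms, with 123 peaks (21.1 per Mb), against 72 on the left arm of IV (12.3 per Mb). The right arm of V had 105 peaks against 71 on the left, and the right arm of I had 81 against 65. On III the order was turned round, with 43 peaks on the right arm (9.36 per Mb) and 66 on the left (14.4 per Mb), and on II there were 70 on the right and 81 on the left. The left share was 36.9% on IV and 40.3% on V. Without IV it was 48.6% (44.5 to 52.8%), without V 47.3% (43.2 to 51.3%) and without both 52.2% (47.2 to 57.2%), all intervals that include 50%. IV and V had the lowest left shares, so leaving them out raises the share by construction. With either one left out, the right arms still held more peaks.

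**Figure D2:**
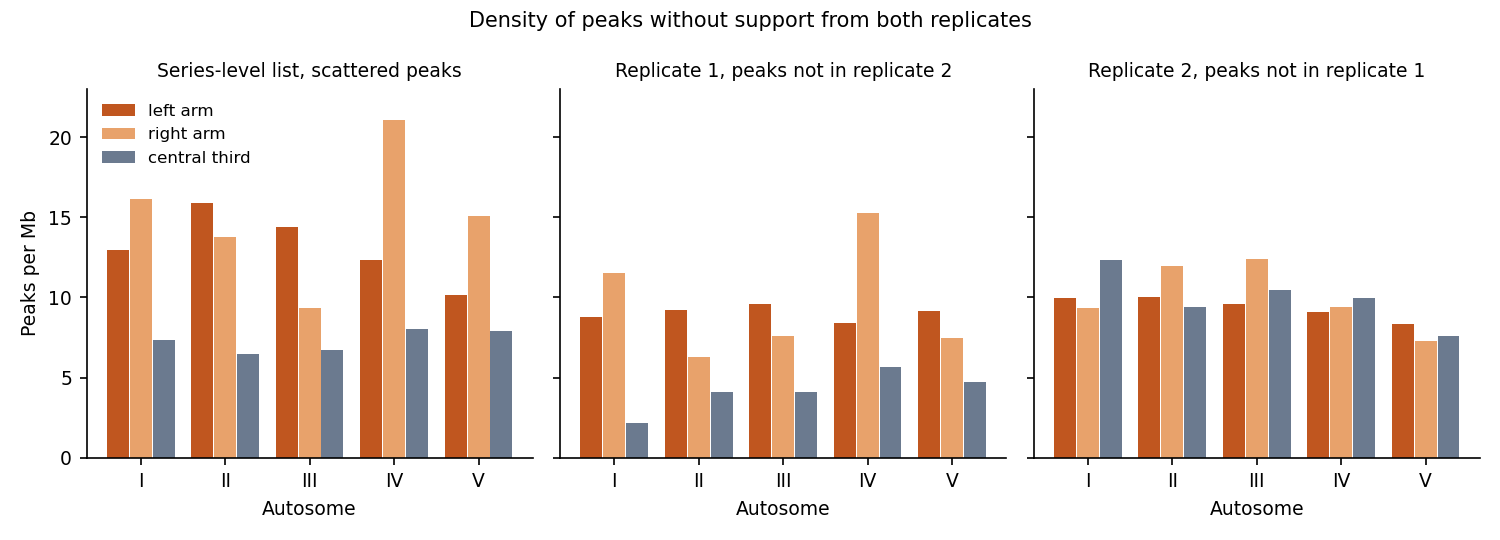
Peaks per Mb (y axis) on the left arm, right arm and central part of each autosome (x axis). The left panel has the series-level scattered peaks, and the other panels have the peaks of each replicate that the other replicate lacked, outside chains. The right arm of IV reached 21.1 per Mb in the series-level list, 15.3 in replicate 1 and 9.43 in replicate 2.

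The replicates' own lists differed in whether unsupported peaks favoured the arms. For each replicate, autosomal peaks were taken that did not touch the other replicate and stood outside chains of that list. Replicate 1 had 1464 autosomal peaks before these steps and replicate 2 had 1265. Shares without the chain filter are not given for the replicates, so its part in the contrast was not tested. In replicate 1, 514 of 631 such peaks lay on the arms (81.5%, 78.2 to 84.4%), with 9.34 per Mb on the arms and 4.25 per Mb in the centre. In replicate 2, 527 of 796 did (66.2%, 62.8 to 69.5%), with 9.58 per Mb on the arms and 9.78 per Mb in the centre. The arm share in replicate 2 was thus close to the 66.7% of length that the arms make up. In replicate 1 all 10 single arms were denser than their own centre, and in replicate 2 this held for 4 of 10. The 2 intervals did not overlap, but the difference between 2 samples could not be tested against replicate error.

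The same contrast appeared among peaks that the series-level list does not contain, and which therefore had no part in choosing the members. They are a subset of the peaks just described, 137 of 631 in replicate 1 and 699 of 796 in replicate 2. The contrast among them is therefore no separate support. Of 137 unsupported replicate 1 peaks outside the series-level list, 116 (84.7%, 77.5 to 90.3%) lay on the arms. Of 699 such replicate 2 peaks, 458 (65.5%, 61.9 to 69.0%) did. The left share of unsupported arm peaks was 48.2% (43.9 to 52.7%) in replicate 1 and 48.6% (44.2 to 52.9%) in replicate 2, with intervals that include 50%. On the right arm of IV replicate 1 had 89 unsupported peaks, against 33 in the centre of IV, and replicate 2 had 55 against 58.

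More scattered arm peaks touched no replicate peak than touched either one, and most of the others touched replicate 1. Of the 777 peaks, 308 (39.6%, 36.2 to 43.2%) touched replicate 1 alone, where 61.2% of all autosomal series-level peaks touched replicate 1. Replicate 2 alone was touched by 54 (6.95%, 5.26 to 8.97%), where 30.6% of all autosomal peaks touched replicate 2. These 2 background shares include peaks that touched both replicates, so they are not like for like. Neither was touched by 415 (53.4%, 49.8 to 57.0%), against 33.8% of all autosomal peaks. The rule removes every peak that touches both, so nothing is read from the distance to these background shares. The series-level list came from another version of the peak caller than the replicate lists. Its part in which peaks touched, here and in the results by support class below, was not tested. In the centre, chosen by the same filters, 76 of 203 peaks (37.4%) touched replicate 1 alone, 29 (14.3%, 9.78 to 19.9%) replicate 2 alone and 98 (48.3%, 41.2 to 55.4%) neither. Without replicate 2, which leaves the peaks that did not touch replicate 1, the arms held 469 scattered peaks, and without replicate 1 they held 745.

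An arm share above the 66.7% of length was found in 2 of the 3 support classes. All autosomal peaks before the filters also exceeded it, with 1211 of 1650 on the arms. The class shares below are after the chain filter, which raised the arm share of the scattered peaks. Peaks touching replicate 1 alone were on the arms in 80.2% of cases (75.9 to 84.1%), and peaks touching neither in 80.9% (77.2 to 84.2%). Peaks touching replicate 2 alone were on the arms in 65.1% (53.8 to 75.2%), an interval that includes the 66.7% of length. Per Mb, arms against centre had 5.60 against 2.76 peaks touching replicate 1 alone, 0.981 against 1.05 touching replicate 2 alone, and 7.54 against 3.56 touching neither.

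**Figure D3:**
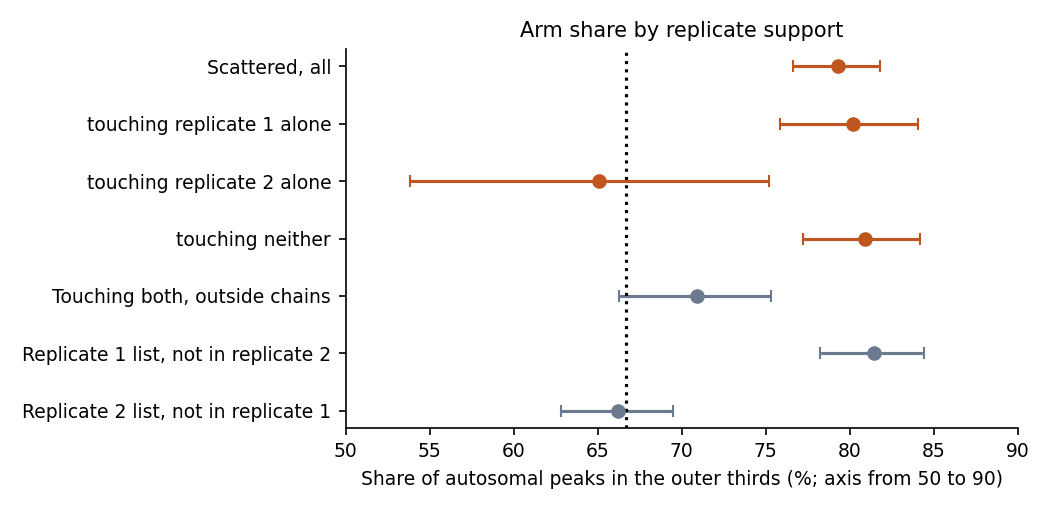
Share of autosomal peaks on the arms (x axis, in percent) with exact 95% intervals for counting error, for the scattered series-level peaks and their support classes (orange) and for other sets (grey). The dotted line marks the 66.7% of length that the arms make up. Peaks touching replicate 2 alone and the unsupported peaks of replicate 2 itself, at 65.1% and 66.2%, lie beside the line.

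A minority of the peaks that touched neither replicate lay close to a replicate peak. The median distance to the nearest replicate 1 peak was 14.0 kb on the arms and 21.3 kb in the centre, and to the nearest replicate 2 peak 24.9 kb on the arms and 17.0 kb in the centre. On the arms, 111 of these 415 (26.7%, 22.5 to 31.3%) were within 1 kb of a replicate 1 peak and 50 (12.0%, 9.08 to 15.6%) within 1 kb of a replicate 2 peak. In the centre the counts were 13 of 98 (13.3%, 7.26 to 21.6%) and 10 of 98 (10.2%, 5.00 to 18.0%). Within 5 kb of a replicate 1 peak were 40.0% of these arm peaks (35.3 to 44.9%) and 28.6% of the central ones (19.9 to 38.6%). Within 5 kb of a replicate 2 peak the order was the other way, with 21.2% on the arms (17.4 to 25.5%) and 26.5% in the centre (18.1 to 36.4%), and the intervals overlap. The share near a replicate 1 peak also depends on where the replicate 1 peaks lie. Those of them that were unsupported and outside chains were denser on the arms than in the centre. The density of all replicate 1 peaks was not compared between arms and centre. At the limit of the rule, a member on I from 10415984 to 10416335 abutted a replicate 1 peak without sharing a base, and so did one on III from 274394 to 274559. On the other side of the limit, a peak on III from 13243419 to 13245064 was left out because replicate 2 covered 4.62% of it, while replicate 1 covered 90.9%.

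Where a scattered arm peak touched a replicate, the replicate peak usually covered only part of it. Replicate 1 covered a median of 61.0% (56.6 to 65.8%) of the 308 arm peaks that touched it alone, and under 50% in 106 of them. In the centre the median was 65.8% (55.5 to 75.3%). The replicate 1 peaks concerned had a median score rank at the 38.9th percentile of their list (35.1 to 41.9), against the 47.1st (31.4 to 55.1) for those of the centre. Replicate 2 covered a median of 75.8% of the 54 arm peaks that touched it alone, and 82.9% of the 29 in the centre.

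Scattered arm peaks were narrow, and their width went with replicate support. Their median width was 225 bp (214 to 237 bp), and the central peaks had 241 bp (223 to 271 bp), a difference of -16 bp (-48.0 to 5.63 bp). Without the chain filter the difference was -37 bp (-74 to -8.84 bp). The arm median was below that of the centre on 4 autosomes and 22.5 bp above it on I. Left arms had a median of 224 bp and right arms 228 bp, with medians of 205 to 265 bp among the 10 arms. Arm peaks touching both replicates were wider, with a median of 494 bp (454 to 555 bp). A wider peak has more room to touch another, so this difference is in part fixed by the rule.

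Within the arms, peaks touching replicate 1 alone had a median of 300.5 bp (273 to 312 bp), those touching replicate 2 alone 219 bp (206 to 271 bp) and those touching neither 192 bp (183 to 199 bp). In the centre the medians were 317.5, 272 and 212 bp. The narrowest peak of the series-level list was 146 bp, and 45 arm peaks (5.79%) had exactly this width, against 17 (8.37%) in the centre. Of these 45 arm peaks, 34 touched neither replicate. At the other extreme 17 arm peaks (2.19%) and 7 central peaks (3.45%) were wider than 1 kb, and all 17 on the arms touched replicate 1.

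**Figure D4:**
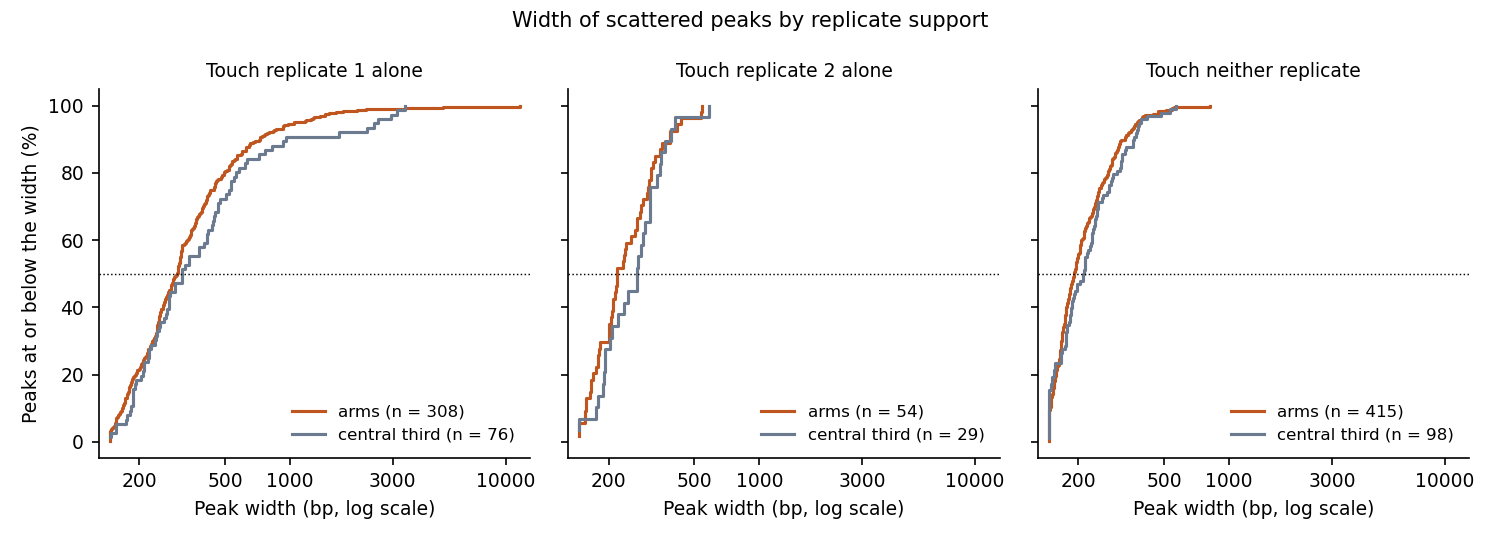
Cumulative share of scattered peaks (y axis, in percent) up to a given width (x axis, bp, log scale) on the arms (orange) and in the centre (grey), for each class of replicate support. Arm peaks reached 50% at 300.5, 219 and 192 bp, and central peaks at 317.5, 272 and 212 bp, for replicate 1 alone, replicate 2 alone and neither.

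Arm and central peaks had similar median score ranks, and their shares differed beyond the intervals only in the second-lowest score class. Scores are the authors' own values on a scale not given in the sources used here, and serve only to rank peaks within a list. The median percentile within the series-level list was 34.0 (29.9 to 34.0) on the arms and 36.7 (25.5 to 44.9) in the centre, with intervals that overlap. Without the chain filter the difference between the medians was -10.3 percentile points (-15.6 to -3.28), against -2.69 (-11.8 to 8.52) with it. Many scores were tied. With the list divided into 4 score classes of 25% each, from lowest to highest score, the arms had 276, 296, 159 and 46 peaks and the centre 77, 48, 55 and 23. The intervals of the second class did not overlap, with 38.1% (34.7 to 41.6%) of arm peaks and 23.6% (18.0 to 30.1%) of central peaks. In each other class the intervals overlapped. The highest class held 5.92% (4.37 to 7.82%) of arm peaks and 11.3% (7.32 to 16.5%) of central peaks. On the arms, the share touching neither replicate was 69.9% in the lowest class, 60.1% and 24.5% in the next ones, and 10.9% in the highest. In the highest class, 41 of the 46 arm peaks touched replicate 1 alone, 0 touched replicate 2 alone and 5 touched neither.

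All 5 of those unsupported high-ranking peaks lay at the right end of a chromosome, as far as the peak lists reach. This was seen only after the values were known. On each autosome the rightmost series-level peak had the largest end in any list, and neither replicate had a peak there. Chromosome length was taken as that largest end, so these peaks set the right end and reach it by definition. Their position relative to the end of the build's sequence was not examined. As background, telomeric repeats lie at chromosome ends. That peak was at 15071638 to 15072452 on I (score rank 69 of 2008), 13783375 to 13783731 on III (rank 165), 20923831 to 20924180 on V (rank 197), 17493450 to 17493824 on IV (rank 217) and 15279039 to 15279369 on II (rank 342). The last peak of replicate 1 ended 0.288 kb before this peak on I, 4.22 kb on III, 50.4 kb on V, 0.482 kb on IV and 92.3 kb on II. For replicate 2 the distances were 0.288, 0.549, 50.3, 0.484 and 15.7 kb in the same order. At the left ends, by contrast, the first series-level peak touched both replicates on all 5 autosomes. Away from the right ends, the best rank of a member touching neither replicate was 547. Without the end peaks 772 members were left. The replicate lists and the series-level list came from different versions of the peak caller, and the part of this in the result was not tested.

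The members were spread over the whole of each arm, with somewhat more in the outer part. Dividing each arm into 3 equal parts, 294 members (37.8%, 34.4 to 41.4%) were in the outer part, 253 in the middle and 230 (29.6%, 26.4 to 32.9%) in the inner part next to the centre. These counts correspond to 16.0, 13.8 and 12.5 peaks per Mb. The gradient was seen on the left arms, with 16.0, 11.8 and 10.9 per Mb, more than on the right arms, with 16.0, 15.8 and 14.2 per Mb. With each arm divided into an outer and an inner part of equal length, 8 of 10 arms had more than 50% of their members in the outer one. The left arm of III was the most uneven at 75.8%, and the right arm of I had 46.9%. Members nearest to the arm limit were a group of 3 on II between 5073795 and 5077144, from 16.1 to 18.5 kb inside it. The nearest scattered peaks outside the limit were on IV, at 11660579 (1.83 kb outside), 11614512 and 11614004.

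Under the filters used, arm peaks stood closer together than central peaks. The median distance from a scattered arm peak to the nearest series-level peak of any kind was 1.33 kb (1.03 to 1.71 kb), against 6.33 kb (1.62 to 11.0 kb) in the centre, with intervals that overlap slightly. Another peak was within 5 kb for 491 of 777 arm peaks (63.2%, 59.7 to 66.6%) and for 96 of 203 central peaks (47.3%, 40.3 to 54.4%). The share over all autosomal series-level peaks was 62.4%, so the arm share is near the background. The rule bounds this measure, since chains were removed and the centre lost more peaks to them. Without the chain filter the difference between arms and centre was 2.11 percentage points, against 15.9 with it, and in the higher-scoring 50% of the lists it was 1.69 points.

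With the chain filter, the arm share was above the central share on all 5 autosomes, and in 9 of 10 single arms. The same filter acted on every autosome, so this agreement is no separate support for the difference. The exception was the right arm of V, with 56.2% against 56.4% in the centre of V. The largest gap was on III, with 65.1% on the arms and 32.3% in the centre. The closest distances differed least, with 24.1% of arm and 20.2% of central peaks having a neighbour within 0.2 kb. By support, a neighbour within 5 kb was found for 68.5% of arm peaks touching replicate 1 alone, 48.1% of those touching replicate 2 alone and 61.2% of those touching neither. The central shares were 63.2%, 34.5% and 38.8%. More than 50 kb from any other peak were 88 arm peaks (11.3%) and 39 central peaks (19.2%).

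**Figure D5:**
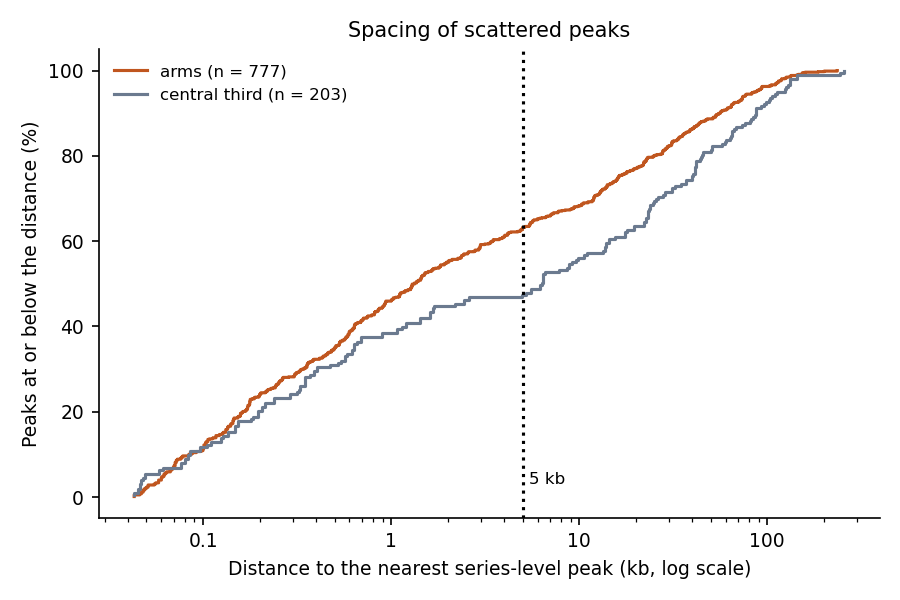
Cumulative share of scattered peaks (y axis, in percent) whose nearest series-level peak lies within a given distance (x axis, kb, log scale), on the arms (orange) and in the centre (grey). At 5 kb, the dotted line, the curves stand at 63.2% and 47.3%, and below 0.2 kb they run close together.

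The neighbour was itself most often another scattered peak. Among arm peaks with a neighbour within 5 kb the nearest was scattered in 418 of 491 cases (85.1%, 81.7 to 88.2%), and it touched both replicates in the other 73. In the centre it was scattered in 81 of 96 cases (84.4%, 75.5 to 91.0%). Outside chains the arms held 777 scattered peaks and 288 that touched both replicates, and the centre 203 and 118. Most possible neighbours were thus scattered, so these shares follow in part from the filters and nothing further is read from them. On the arms 286 members (36.8%) stood alone, 215 (27.7%) were in pairs, 237 (30.5%) in groups of 3 to 5 and 39 (5.02%) in groups of 6 to 9. In the centre 107 of 203 (52.7%) stood alone. When each group of peaks within 5 kb was counted once, the arms had 500 groups (9.09 per Mb) and the centre 151 (5.49 per Mb), so the higher density of the arms was still seen with groups as the unit.

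In windows of 100 kb, the most members were 10, on II from 15100001 to 15200000. Of these, 7 touched neither replicate and 3 touched replicate 1 alone, and their widths were 150 to 451 bp. On III from 400001 to 500000 there were 9, of which 5 touched replicate 1 alone, 2 replicate 2 alone and 2 neither, and 4 further series-level peaks there touched both. On V from 1200001 to 1300000 there were 9, with 7 touching replicate 1 alone and 2 neither. The fifth window, on II from 1900001 to 2000000, had 8, with 2 touching replicate 1 alone and 6 neither. Members were found in 342 windows, of which 146 had 1 member and 28 had 5 or more.

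The remaining window, on V from 14500001 to 14600000, differed from these in that all 9 of its members fell within 4.25 kb, from 14586609 to 14590863. The gaps between them were 72 to 418 bp, their widths 177 to 466 bp and their scores 3.10 to 5.42. Replicate 1 covered 12.7% of the member from 14589619 to 14590084, and the other 8 touched no replicate peak. This group was 1 peak short of a chain. The shortest chains that the rule removed from the arms were on III from 13584224 to 13599275 (10 peaks), on V from 6171672 to 6182877 (10 peaks) and on I from 10266705 to 10276909 (11 peaks). In these, 7, 9 and 11 peaks touched replicate 1 alone and 0 touched neither replicate.

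The highest-scoring members of the left arms all touched replicate 1 and had no replicate 2 peak nearby. The first was on V at 1637829 to 1639105 (1277 bp, rank 117), of which replicate 1 covered 90.9% and from which the nearest replicate 2 peak was 106.7 kb away. Next came III at 2077552 to 2082656 (5105 bp, rank 167, 99.5% covered by replicate 1) and II at 891293 to 892053 (761 bp, rank 238, 90.3%). The fourth and the fifth were on V at 858978 to 859293 (316 bp, rank 274, 78.2%) and on IV at 5465077 to 5467128 (2052 bp, rank 314, 92.4%). The nearest replicate 2 peak was 18.5 kb from the peak on III, 48.8 kb from that on II, 85.4 kb from that on V and 19.9 kb from that on IV. All 5 were alone within 5 kb in the series-level list.

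Among the 5 highest-scoring members of the right arms, 2 were the end peaks of I and III already described. The others touched replicate 1 alone. They were on I at 10207562 to 10219287 (11726 bp, rank 133, 99.7% covered by replicate 1), on I at 13276836 to 13277367 (532 bp, rank 134, 83.1%) and on III at 10225990 to 10227744 (1755 bp, rank 157, 97.6%). The peak on III stood 88 bp from its nearest series-level neighbour and 417 bp from a replicate 2 peak. The peak of 11726 bp was the widest of all members, and its neighbour 135 bp to the left, at 10204014 to 10207426, was among the 5 widest with 3413 bp. The nearest replicate 2 peak was 13.4 kb from the wider of this pair. A further wide member was on IV at 17060593 to 17062857 (2265 bp, 94.9% covered by replicate 1), and the other 2 of the 5 widest were the left-arm peaks on III and IV named above.

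The most isolated members touched neither replicate. On the left arms it was a peak of 375 bp on I at 2935523 to 2935897 (rank 913), which was 235.6 kb from the next series-level peak. The nearest peaks of replicate 1 and replicate 2 were 235.7 and 60.3 kb away from it. On the right arms it was a peak of 147 bp on V at 16109462 to 16109608 (rank 1404), which was 186.5 kb from the next series-level peak, 1.12 kb from a replicate 1 peak and 66.8 kb from a replicate 2 peak.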

How the data were processed

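The IMB-1 ChIP-seq peak lists used were those of the 2 ChIP replicates and 1 series-level list. Per the submitters' processing notes, BWA was the aligner and ce10 the build. Per the file headers, peaks are on WormBase WS220, from MACS in each replicate and from MACS v2 in the series-level list. The peak score is the value the authors deposited, and the sources used here do not give its scale, the control or the threshold, nor whether replicates were pooled for the series-level list. All 3 value columns were mapped.

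Chromosome length was the largest peak end in any list. Scores were used as ranks, as average percentiles within a list. Share intervals are exact Clopper-Pearson 95% intervals. Median intervals are 95% intervals from binomial order statistics. Intervals of differences combine those of both groups by square-and-add. Distances are the bases between peaks. The members, the measures and the regions named were chosen with earlier results of these data known. Named were the 5 members of highest score in left and in right arms, the 5 widest, the 5 windows of 100 kb with the most members, the most isolated member on either side, and the 3 peaks on each side of the arm limit. The end peaks and those at the other limits of the rule were singled out after their values were seen. The functions were tested on simulated lists. Python 3.11.15, numpy 2.4.6, pandas 2.3.3, scipy 1.17.1 and matplotlib 3.10.9 were used. Depth is unknown.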

Additional observations from a re-analysis of the deposited data

How the results depend on the processing

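The 7 measures were recomputed under 11 other settings, and 63 of 74 values stayed within the interval of the value reported (for the number of peaks, within 1.5 times). No difference between arms and centre changed sign beyond its interval. The number of scattered arm peaks, 777, was 321 in the higher-scoring 50% of each list and 500 with groups within 5 kb counted once, a setting chosen after the data were seen. Leaving out a replicate gave 469 (without replicate 2) to 745 (without replicate 1). The arm share, 79.3%, was 61.3% with the outer 50% of the length as arms, 74.1% without the chain filter and 73.1% in the higher-scoring 50%. The excess of arm peaks with a neighbour within 5 kb, 15.9 points, was 2.11 (-3.94 to 8.37) without the chain filter. In the higher-scoring 50% it was 1.69 (-9.21 to 12.3), and both intervals include 0. The share touching replicate 1, 39.6%, was 23.7% with a reciprocal overlap of 50%, 45.6% without the chain filter and 45.2% in the higher-scoring 50%. By construction, 321 comes from a shorter list, 500 from counting groups once, and 469 from dropping the 308 peaks that touched replicate 1 alone. The other causes were not tested. The share touching replicate 1 has no value when a replicate is left out, nor has spacing with groups counted once. The left share and the differences in width and score rank stayed within the intervals first reported under all settings run. Those of width and score rank were nevertheless larger without the chain filter, at -37 bp (-74 to -8.84) against -16 bp and -10.3 points (-15.6 to -3.28) against -2.69, with intervals below 0. The width difference with the outer 50% of the length as arms was -20 bp (-41.5 to -0.15). No paired analysis was possible because input was not analysed here, so ChIP and input samples of the same number were never compared. Read depth is unknown, so a missing peak is a missing call and not a measured absence of signal.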

Other observations

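On X, which is not an autosome, the same filters kept 209 series-level peaks, of which 153 (73.2%, exact 95% interval 66.7 to 79.1%) lay in the outer parts and 56 in the central part. The outer peaks of X had a median width of 253 bp and the central ones 231 bp. A neighbour within 5 kb was found for 61.4% of the outer and 53.6% of the central peaks. The left end part of X held 79 and the right end part 74.

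Of the unsupported arm peaks of replicate 1, outside chains of that list, 354 of 514 (68.9%) touched a scattered arm peak of the series-level list. Of those of replicate 2, 53 of 527 (10.1%) did.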
